A study of Mus musculus with 6 samples.

Results

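Cytotoxic granule genes were followed in CD8 T cells sorted from mouse spleen: 4 granzymes (Gzma, Gzmb, Gzmk and Gzmm), perforin (Prf1), 3 genes of granule make-up and release (Nkg7, Srgn and Unc13d) and 2 intracellular serpins (Serpinb9 and Serpinb6b). These 10 genes were taken by symbol from the 17744 genes of the authors' deposited table. All 10 also passed the filter on low values, an FPKM of at least 1 in 3 libraries, which left 10655 genes to test. FPKM counts sequenced fragments relative to the gene's length and the library's depth. RNA-seq was done on 6 libraries of cells gated as CD45+, CD3+ and CD8a+, 3 from control animals and 3 from animals whose treatment label is fus irradiation, which the series title spells out as focused ultrasound of the spleen. The controls are labelled wild type, and the genotype field of the ultrasound libraries repeats the treatment in place of a genotype. Strain, age, dose, interval after treatment and whether each library came from 1 animal are not given in the sources used here, so the p-values measure the spread between these libraries only.

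Cytotoxic T cells and NK cells kill by releasing lysosome-like granules towards a target cell. Perforin opens the target's membrane, granzymes are serine proteases that enter and cleave proteins inside, and the proteoglycan serglycin (Srgn) packs both in the granule core. Resting splenic CD8 T cells hold few of these transcripts, whereas effector and memory cells and NK cells hold many.

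Total depth was even, between 35024080 and 38113103 recovered reads per library, and the granule genes rested on 278 to 15020 reads each. Counting noise would give a ratio of chi-square to degrees of freedom near 1, and every pair of libraries had 22.6 or higher, so none was counted as a repeat of another. The ultrasound libraries did not form 1 tight group. Ultrasound 1 lay at -0.53 on the first principal component, which held 70.8% of the variance, while no control exceeded -15.81 and ultrasound 2 and 3 reached 33.22 and 39.71. The 10 markers of CD8 T cells summed to 2697, 2855 and 2835 FPKM in the controls, 2342 in ultrasound 1, 3116 in ultrasound 2 and 2877 in ultrasound 3. Cd8b1, a chain of the CD8 receptor, and Thy1, a pan-T cell surface protein, led them at 438 FPKM or more and 422 or more in every library. The markers did not move together: of the 10, 4 had a log2 change above 0 and 6 below. In ultrasound 3, Cd8b1 lay below every control (452 against 504 to 562 FPKM) and Thy1 above every control (578 against 447 to 470). In RNA from many cells, fewer cells of a type and less RNA per cell cannot be told apart.

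Of the 10 granule genes, 1 passed the test, Gzmb, which rose. Over all genes tested, 8.11% passed (limma on log2(FPKM + 1), Benjamini-Hochberg adjusted p under 0.05), so 1 of 10 was close to the background. Higher calls made up 6.55% of all genes and lower calls 1.56%. The groups did not overlap for Gzmb alone among the 10, against 34.8% of all genes tested (25.9% higher and 8.96% lower in ultrasound libraries). The other 9 genes had adjusted p from 0.193 to 0.987, with 95% intervals that included 0. The median log2 change was 0.11 over the 10 genes and 0.087 over all genes tested.

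**Figure D1:**
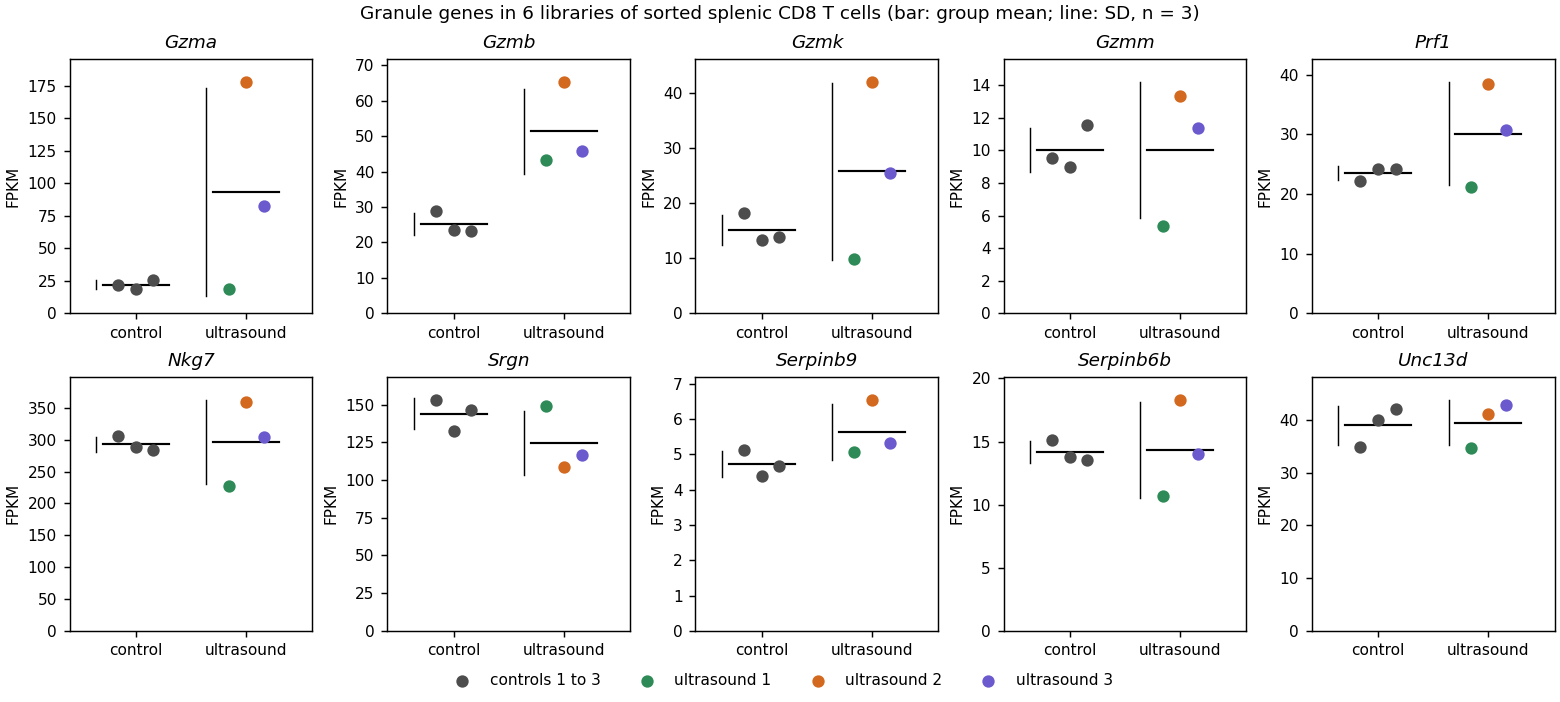
FPKM (vertical axes, from 0) of the 10 granule genes in 3 control and 3 ultrasound libraries; points are libraries, horizontal bars group means and vertical lines SD (n = 3). Gzmb is the gene whose ultrasound libraries all lie above all controls, and for Gzma and Gzmk ultrasound 1 lies at or below the lowest control while ultrasound 2 and 3 lie above the highest.

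The stretches just before the start of 3 granzyme genes are shown because Gzmb passed the test and because Gzma and Gzmk, neighbours on chromosome 13, were the members that differed most between the ultrasound libraries. Each is the 250 bases before the RefSeq start on the gene's own strand (GRCm38.p6, the assembly behind mm10, which the submitters' processing notes name). Capitals mark matches to the motifs searched on both strands.
Gzmb, chr14:56262335-56262584, minus strand: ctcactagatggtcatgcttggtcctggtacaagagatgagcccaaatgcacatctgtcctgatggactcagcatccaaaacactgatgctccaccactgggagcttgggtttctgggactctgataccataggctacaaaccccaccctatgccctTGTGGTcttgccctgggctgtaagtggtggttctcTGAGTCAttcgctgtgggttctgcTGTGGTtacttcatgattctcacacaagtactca
Gzma, chr13:113100982-113101231, minus strand: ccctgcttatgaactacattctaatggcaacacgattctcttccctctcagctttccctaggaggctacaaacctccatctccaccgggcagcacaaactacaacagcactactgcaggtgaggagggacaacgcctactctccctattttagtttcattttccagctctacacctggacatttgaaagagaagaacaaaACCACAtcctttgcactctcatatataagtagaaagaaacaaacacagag
Gzmk, chr13:113180966-113181215, minus strand: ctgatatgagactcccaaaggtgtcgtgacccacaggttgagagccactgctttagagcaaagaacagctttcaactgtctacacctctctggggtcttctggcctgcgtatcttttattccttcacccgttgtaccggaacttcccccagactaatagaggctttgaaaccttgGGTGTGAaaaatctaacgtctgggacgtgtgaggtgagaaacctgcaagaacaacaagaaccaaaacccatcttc
The Gzmb stretch holds the RUNX letters TGTGGT at 93 to 88 and again at 34 to 29 bases before the start, and the AP-1 letters TGANTCA at 58 to 52. The Gzma stretch holds the RUNX letters, on the other strand, at 50 to 45 bases before the start. The Gzmk stretch holds the T-box core TCACACC, on the other strand, at 75 to 69. RUNX3 and the T-box factors T-bet and eomesodermin are known regulators of the cytotoxic programme, and AP-1 acts after T cell receptor signals. Among 32851 such stretches in RefSeq, 14.0% hold the RUNX letters, 6.75% the AP-1 letters and 3.33% the T-box core. The STAT letters TTCNNNGAA (7.02% of stretches) and the CRE letters TGACGTCA (1.55%) are in none of these 3 stretches. RefSeq entries matched 9 of the 10 genes, all but Unc13d. No motif overlaps another in these stretches, and a match in letters is a description, not a site.

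Gzmb encodes granzyme B, the protease that cuts after aspartate and activates caspases in the target. The gene (NCBI Gene 14939) spans 56258836 to 56262334 on chromosome 14, with 5 exons. It had 28.8, 23.4 and 23.4 FPKM in controls 1, 2 and 3, against 43.2, 65.2 and 45.7 in ultrasound 1, 2 and 3. Every ultrasound library lay above every control, at 1.72, 2.59 and 1.81 times the control mean, with ultrasound 2 the highest. The rise was 0.98 on the log2 scale (standard error 0.17, 95% interval 0.57 to 1.40, limma adjusted p 0.0311). In the authors' deposited table Gzmb has a fold of 1.86 and q of 0.000227, where 12.3% of all its genes have a q under 0.05. The call was lost when single libraries were left out: limma adjusted p was 0.159 without control 2, 0.144 without control 3, 0.0672 without ultrasound 2 and 0.0972 without ultrasound 3, with log2 changes from 0.80 to 1.05. In each of these fits 0 of all genes tested passed. The unadjusted limma p of Gzmb in them was 0.00482, 0.0048, 0.000869 and 0.00178, in the same order. Ultrasound 1 alone against the controls gave 0.76 (limma adjusted p 0.128), a comparison that rests on 1 library.

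Gzma encodes granzyme A, a trypsin-like protease that is abundant in NK cells and effector CD8 T cells. The gene (NCBI Gene 14938) spans 113093824 to 113100981 on chromosome 13, with 6 exons. It had 21.9, 18.9 and 25.5 FPKM in the controls, against 18.9, 178 and 82.3 in ultrasound 1, 2 and 3. Ultrasound 1 lay just under the lowest control, whereas ultrasound 2 and 3 lay 8.04 and 3.72 times over the control mean, so the groups overlapped. Gzma had the highest group ratio of the 10 genes, 4.20, from 22.1 ± 3.31 to 93.0 ± 80.0 FPKM (SD, n = 3 each). Its SD was 86.0% of the mean in ultrasound libraries and 15.0% in controls. The log2 change of 1.54 had a standard error of 0.72 (limma adjusted p 0.193). The authors' deposited table gives a fold of 3.80 with q of 0.0993.

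Gzmk, whose product granzyme K also has trypsin-like specificity and marks a memory-like subset of CD8 T cells, lies 70648 bases from Gzma with 1 annotated gene between them. It is NCBI Gene 14945, at 113171630 to 113180965 on chromosome 13, with 6 exons. It had 18.2, 13.3 and 13.9 FPKM in the controls, against 9.85, 42.0 and 25.5 in ultrasound 1, 2 and 3. The order of the libraries was that of Gzma at the top: ultrasound 2, then ultrasound 3, with ultrasound 1 below every control. The log2 change was 0.53 (standard error 0.46, limma adjusted p 0.442).

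Gzmm encodes granzyme M, which cuts after methionine and leucine and is best known from NK cells. Its gene (NCBI Gene 16904) spans 79689020 to 79695261 on chromosome 10, with 5 exons. It had 9.53, 9.0 and 11.5 FPKM in the controls, against 5.36, 13.4 and 11.4 in ultrasound 1, 2 and 3. The group means were nearly equal, at 10.02 in each group, while ultrasound 1 had 0.535 times the control mean and ultrasound 2 had 1.33 times. The log2 change of -0.075 had a 95% interval from -0.78 to 0.63 (limma adjusted p 0.873).

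**Figure D2:**
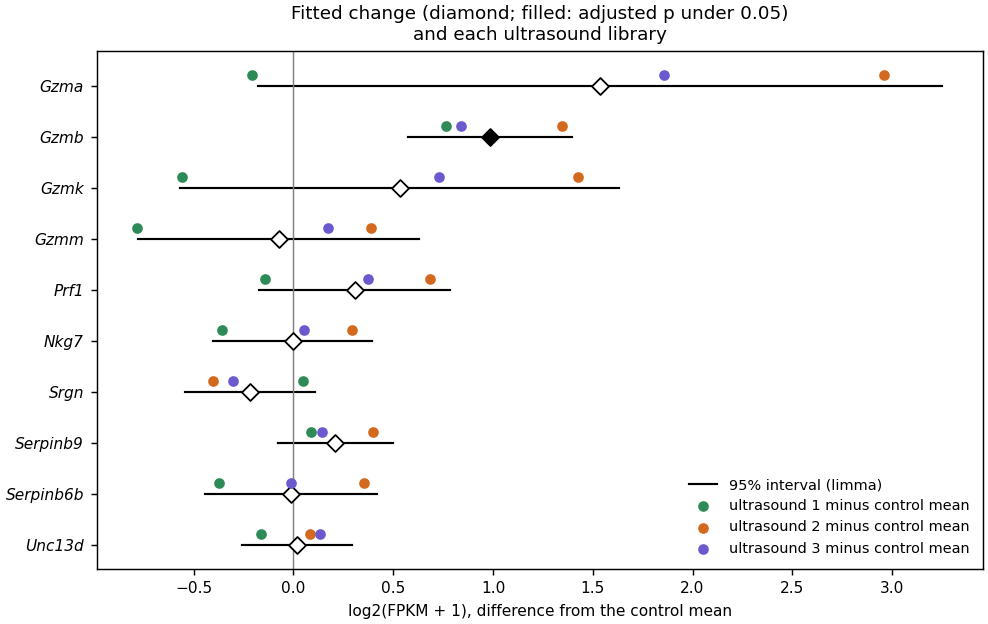
Difference from the control mean on the log2(FPKM + 1) scale (horizontal axis) for the 10 granule genes; diamonds are the fitted changes with 95% intervals from limma (filled where the adjusted p is under 0.05) and coloured points the 3 ultrasound libraries. Gzmb, at 0.98, has the filled diamond; ultrasound 1 lies left of 0 for Gzma, Gzmk, Gzmm, Prf1, Nkg7, Serpinb6b and Unc13d.

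The make-up of the granzyme transcripts differed between the ultrasound libraries. The 4 granzymes together had 78.4, 64.6 and 74.3 FPKM in the controls, 77.4 in ultrasound 1, 298 in ultrasound 2 and 165 in ultrasound 3, so ultrasound 1 lay within the controls. Gzma made up 27.9% to 34.4% of this sum in the controls, 24.4% in ultrasound 1, 59.6% in ultrasound 2 and 49.9% in ultrasound 3. Gzmb made up 31.4% to 36.7% in the controls, 55.9% in ultrasound 1, 21.9% in ultrasound 2 and 27.7% in ultrasound 3. Gzmb held the largest share in controls 1 and 2 and in ultrasound 1, and Gzma in control 3 and in ultrasound 2 and 3. Gzmm held 12.2% to 15.5% in the controls and 4.48% to 6.93% in the ultrasound libraries. Gzmk held 18.7% to 23.2% in the controls and 12.7% to 15.5% in the ultrasound libraries, below every control although its level in ultrasound 2 and 3 was above every control.

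**Figure D3:**
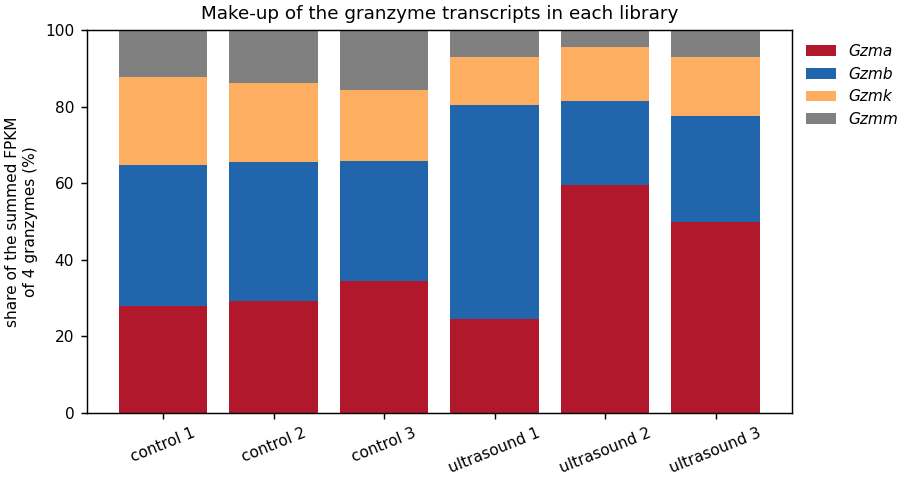
Share of the summed FPKM of Gzma, Gzmb, Gzmk and Gzmm (vertical axis, percent) held by each gene in each of the 6 libraries. Gzmb holds 55.9% in ultrasound 1, and Gzma holds 59.6% and 49.9% in ultrasound 2 and 3, against 34.4% or less in the controls.

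Prf1 encodes perforin, the pore former without which granzymes do not reach the target's cytosol. Prf1 (NCBI Gene 18646) spans 61297751 to 61304684 on chromosome 10, with 3 exons. It had 22.2, 24.2 and 24.3 FPKM in the controls, against 21.2, 38.5 and 30.7 in ultrasound 1, 2 and 3. Ultrasound 2 and 3 lay above the controls and ultrasound 1 just below them. The log2 change was 0.31 (standard error 0.20, limma adjusted p 0.317). Gzmb had 0.963 to 1.30 times the FPKM of Prf1 in the controls, against 2.04, 1.70 and 1.49 times in ultrasound 1, 2 and 3. The ratio lay above every control in each ultrasound library, as Gzmb did by itself, so it is no separate result.

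Unc13d encodes Munc13-4, which primes docked granules for fusion with the plasma membrane. Unc13d (NCBI Gene 70450) spans 116062095 to 116078495 on chromosome 11, with 32 exons. It had 35.0, 40.0 and 42.1 FPKM in the controls and 34.6, 41.2 and 42.8 in the ultrasound libraries, with nearly the same spread in both groups. The log2 change was 0.017 with a 95% interval from -0.26 to 0.29 (limma adjusted p 0.926). Its direction turned with scaling, to -0.086 with median-of-ratios size factors and -0.076 with upper-quartile factors.

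Nkg7, a membrane protein of the granules needed for their release, was the highest of the 10 genes in every library. Its gene (NCBI Gene 72310) spans 43437138 to 43438246 on chromosome 7, with 4 exons. It had 307, 289 and 284 FPKM in the controls, against 228, 359 and 304 in ultrasound 1, 2 and 3, which put it above at least 97.9% of tested genes in each library. Ultrasound 1 was the lowest library and ultrasound 2 the highest. The log2 change was -0.0045 with a 95% interval from -0.40 to 0.39 (limma adjusted p 0.987).

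Srgn, the gene of serglycin, had a library order unlike that of the granzymes. The gene (NCBI Gene 19073) spans 62493833 to 62527445 on chromosome 10, with 4 exons. It had 153, 133 and 147 FPKM in the controls, against 149, 109 and 117 in ultrasound 1, 2 and 3. Ultrasound 1 lay within the controls, and ultrasound 2 and 3, which had the most Gzma, lay below all controls. The log2 change was -0.22 (standard error 0.14, limma adjusted p 0.299).

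Serpinb9 inhibits granzyme B and is held to shield killer cells from their own protease; Serpinb6b is a related intracellular serpin. Both lie on chromosome 13, 17993 bases apart with no annotated gene between them: Serpinb9 (NCBI Gene 20723) at 32997061 to 33017955 with 8 exons, and Serpinb6b (NCBI Gene 20708) at 32956811 to 32979067 with 7 exons. Serpinb9 was the lowest of the 10 genes in every library, with 5.13, 4.39 and 4.66 FPKM in the controls and 5.07, 6.55 and 5.31 in the ultrasound libraries. Its log2 change was 0.21 (standard error 0.12, limma adjusted p 0.266). Gzmb had 5.02 to 5.60 times the FPKM of Serpinb9 in the controls, against 8.53, 9.96 and 8.61 times in ultrasound 1, 2 and 3. This ratio lay above every control in every ultrasound library, as Gzmb did by itself, so it is no separate result. Serpinb6b had 15.2, 13.7 and 13.6 FPKM in the controls and 10.7, 18.3 and 14.0 in the ultrasound libraries. It was lowest in ultrasound 1 and highest in ultrasound 2, with a log2 change of -0.012 and a 95% interval from -0.44 to 0.42 (limma adjusted p 0.967). Of 50-base words of the longest coding transcript, 3.12% for Serpinb6b and 0.38% for Serpinb9 also occur in other genes, chiefly Serpinb6c and Serpinb9b, against 0 for the other 8 genes, so reads shared within the serpin family leave these values slightly uncertain.

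Within each library the 10 genes kept much of their order by FPKM. Nkg7 had rank 1, Gzmm rank 9 and Serpinb9 rank 10 in all 6 libraries. Srgn had rank 2 in 5 libraries and rank 3 in ultrasound 2, where Gzma took its place. Gzma had rank 4 or 6 in the controls, rank 6 in ultrasound 1 and rank 3 in ultrasound 3. Gzma, Gzmb and Prf1 all lay between 18.9 and 28.8 FPKM in the controls, a range in which their order changed from library to library.

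Ultrasound 1 was the library with the lowest value for 7 of the 10 genes (Gzma, Gzmk, Gzmm, Prf1, Nkg7, Serpinb6b and Unc13d), against 13.8% of all genes tested. The same held for 9 of the 10 CD8 T cell markers, and the part of T cell RNA in the granule values was not tested. For 6 of the 10, all of these but Unc13d, ultrasound 1 was the lowest and ultrasound 2 the highest library, against 6.64% of all genes. That order held for 9 of 9 B cell markers and 3 of 10 CD8 T cell markers as well. For 5 genes (Gzma, Gzmk, Prf1, Gzmb and Serpinb9) ultrasound 2 and 3 both lay above the other 4 libraries, as did 37.3% of all genes tested. Across the 6 libraries, Pearson's r of log2(FPKM + 1) with Gzma was 0.98 for Prf1, 0.94 for Gzmk, 0.80 for Gzmb and -0.91 for Srgn. Nkg7 and Serpinb6b had r of 0.99 with each other. These 6 points share depth and the distance between ultrasound 1 and the other ultrasound libraries, so the values describe these libraries only.

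Among tested genes with a mean FPKM of at least 5, the 3 with a pattern most like Gzma over the 6 libraries were Commd2, Cdc23 and Gypc, with r of 0.999, 0.997 and 0.997. For Gzmb they were Jkamp (0.999), Fkbp1a (0.994) and Jpt2 (0.993), and for Prf1 Cox15 (0.997), Hikeshi (0.995) and Coq8a (0.993). Their ranges were narrower than those of the granule genes: Commd2 ran from 5.54 to 7.30 FPKM and Fkbp1a from 43.9 to 60.6.

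Without ultrasound 1, 5 of the 10 granule genes passed, 4 higher and 1 lower, when 53.7% of all genes tested passed. Gzma was then higher by 2.41 on the log2 scale (limma adjusted p 0.00294), Gzmk by 1.08 (0.0139) and Prf1 by 0.53 (0.00512). Gzmb was higher by 1.09 (limma adjusted p 0.00407), and Srgn was lower, with a log2 change of -0.35 (limma adjusted p 0.0108). With ultrasound 1 alone against the controls 0 granule genes passed limma, when 1.41% of all genes did and 4 of the 10 had an unadjusted p under 0.05. The 4 were Gzmm, Gzmb, Nkg7 and Serpinb6b, with log2 changes of -0.79, 0.76, -0.36 and -0.37, which rest on 1 ultrasound library. Gzma, Gzmk, Prf1 and Srgn were not among the 4. Their log2 changes there were -0.21, -0.56, -0.14 and 0.049, each opposite in sign to the fit over all libraries. Of the 5 genes that passed without ultrasound 1, Gzmb kept its sign both in that fit and in ultrasound 1 alone.

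The wider granule pathway was followed in 5 lists with 47 genes, of which 41 are in the table and 36 were tested. Of the 36, 5 rose and 0 fell in the limma fit, against 6.55% of all genes called higher, and 15 had an unadjusted p under 0.05, against 31.2% of all genes. Their median log2 change was 0.26, against 0.087 over all genes. The count of 5 was 1 with median-of-ratios size factors and 3 with upper-quartile factors, and over all genes those scalings gave 293 higher and 144 lower, and 431 higher and 192 lower, against 698 and 166 in the main fit. It was 20 of 36 without ultrasound 1, when 53.7% of all genes tested passed. Without control 2, control 3, ultrasound 2 or ultrasound 3 it was 0, and 0 of all genes tested passed. In those fits 13 to 15 of the 36 had an unadjusted limma p under 0.05, against 1962 to 2154 of all 10655 genes tested.

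Of 8 granule proteases and their activators, 2 rose and 6 did not pass, beside 6.55% of all genes tested called higher. Ctsd, the aspartic protease of lysosomes, went from 244 ± 12.5 FPKM to 355 ± 30.5 (SD, n = 3 each; log2 change 0.54, limma adjusted p 0.0331). Ctsb, a cysteine protease of lysosomes, went from 87.4 ± 20.7 to 168 ± 31.4 FPKM (log2 change 0.94, limma adjusted p 0.0407). Both serve lysosomes in general and are abundant in macrophages. Ctsc, the dipeptidase that activates pro-granzymes, had 17.8, 12.4 and 11.9 FPKM in the controls and 27.3, 20.8 and 22.8 in the ultrasound libraries (limma adjusted p 0.0516). Every ultrasound library thus lay above every control for Ctsc, and the authors' deposited table gives it a q of 0.0310. Ctsh, another lysosomal cysteine protease, had 51.2, 22.8 and 21.8 FPKM in the controls and 50.1, 85.2 and 100.2 in the ultrasound libraries (limma adjusted p 0.0777; q of 0.0266 in the authors' deposited table). Ctsw, a cathepsin of killer cells, had 198 to 225 FPKM in the controls and 153 to 201 in the ultrasound libraries (limma adjusted p 0.203). Ctsc, Ctsh and Ctsw were picked after their values were seen.

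Of 20 tested genes of granule exocytosis, 2 rose and 18 did not pass, beside 6.55% of all genes tested called higher. Lamp1, the granule and lysosome membrane protein exposed on degranulating cells, went from 87.4 ± 15.9 to 156 ± 17.7 FPKM (SD, n = 3 each; log2 change 0.84, limma adjusted p 0.0312). Rab7, a GTPase of late endosomes and lysosomes, went from 62.7 ± 4.04 to 86.2 ± 7.12 FPKM (log2 change 0.45, limma adjusted p 0.0430). Rab27a, which docks granules at the membrane and was picked after its values were seen, had 20.1 to 20.8 FPKM in the controls and 20.0 to 25.0 in the ultrasound libraries (limma adjusted p 0.381). The list's median log2 change was 0.26, with 17 genes above 0 and 3 below.

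Of 4 tested serpins outside the member list, 1 rose, beside 6.55% of all genes tested called higher. Serpinb1a, an inhibitor of neutrophil serine proteases, went from 5.86 ± 1.68 to 18.0 ± 3.02 FPKM (SD, n = 3 each; log2 change 1.48, limma adjusted p 0.0297). Among 4 death ligands and related cytokines 0 passed limma, and 0 had the ultrasound libraries on 1 side of all controls. Over all genes tested, those shares were 8.11% and 34.8%. Ltb, the lymphotoxin beta chain, had 326 to 365 FPKM in the controls and 287 to 403 in the ultrasound libraries, and Lta, the secreted lymphotoxin, 8.93 to 10.3 and 9.64 to 11.0. Of 6 granzymes outside the member list only Gzmc is in the table, at 0.102 to 0.563 FPKM, and it was not tested.

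**Figure D4:**
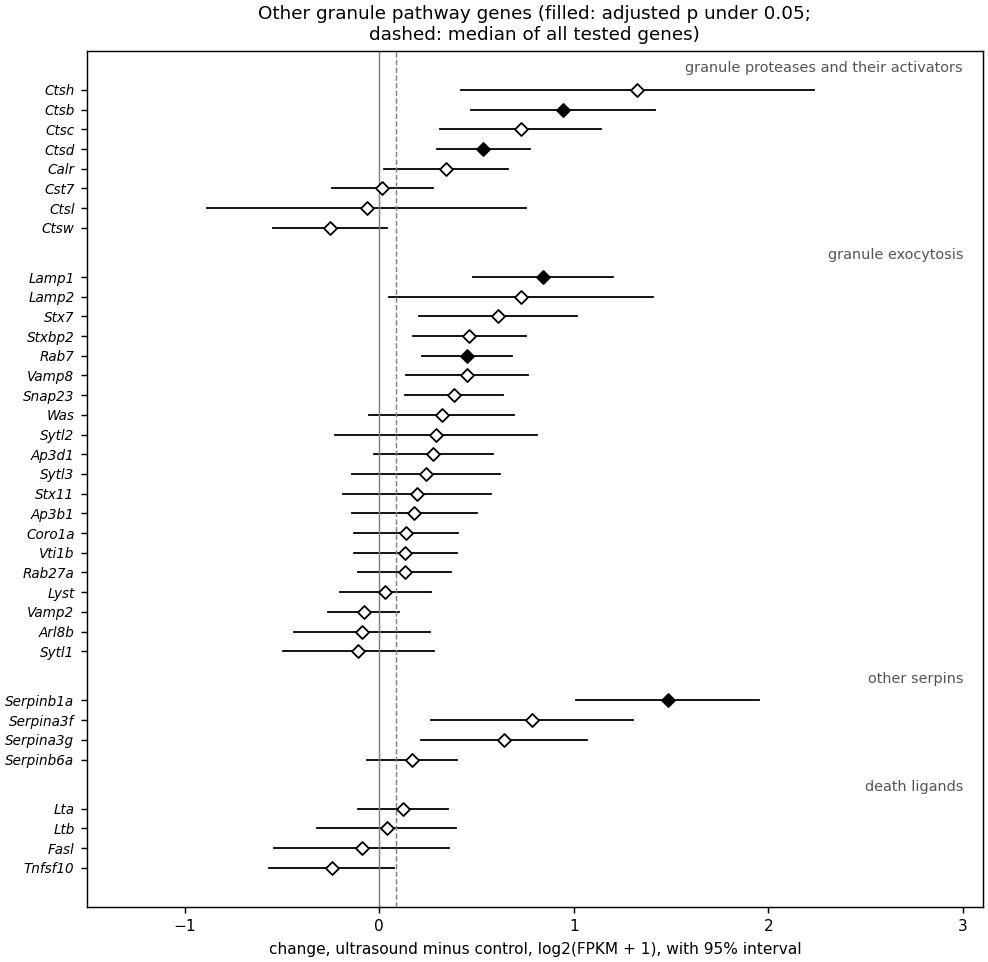
Change between groups on the log2(FPKM + 1) scale with 95% intervals from limma (horizontal axis) for 36 tested genes of granule proteases, granule exocytosis, other serpins and death ligands. Filled diamonds mark the 5 genes with adjusted p under 0.05 (Ctsd, Ctsb, Lamp1, Rab7 and Serpinb1a), and the dashed line is the median of all tested genes at 0.087.

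Of 16 genes of effector CD8 T cells, 1 rose and 15 did not pass, close to the 6.55% of all genes tested that were called higher. Cd44, an adhesion receptor of antigen-experienced T cells, went from 23.2 ± 4.39 to 38.4 ± 3.29 FPKM (SD, n = 3 each; log2 change 0.71, limma adjusted p 0.0389). The call on Cd44 was lost with either scaling, under which 0 of the 16 passed limma. In each of those fits 7 of the 16 had an unadjusted limma p under 0.05. Over all 10655 genes tested, 3194 did with median-of-ratios size factors and 3136 with upper-quartile factors. The median log2 change of the list was 0.34. Relative to the control mean its median gene lay at 0.094 in ultrasound 1, 0.60 in ultrasound 2 and 0.68 in ultrasound 3, and the granule genes' median lay at -0.19, 0.39 and 0.16. Without ultrasound 1, 11 of the 16 passed, when 53.7% of all genes tested did.

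Markers of other cells that carry granule transcripts were followed as well. Of 6 tested NK cell markers, 1 had every ultrasound library above every control and 5 overlapped between the groups. Over all genes tested, 25.9% had every ultrasound library above every control and 6.55% were called higher. The 10 NK cell markers summed to 7.74, 7.92 and 10.6 FPKM in the controls, 12.4 in ultrasound 1, 37.5 in ultrasound 2 and 32.2 in ultrasound 3. The 2 libraries with the most Gzma thus also had the most NK marker RNA. They also had the highest sums of CD8 T cell, B cell, dendritic cell, monocyte and macrophage, and mast cell and basophil markers. In every library 0 of the 10 NK cell markers were at 0 reads. Klrb1c, the NK1.1 antigen, rose from 1.57 ± 0.412 to 7.44 ± 2.02 FPKM (SD, n = 3 each; log2 change 1.70, limma adjusted p 0.0297), the call in 1 of 6 tested NK markers. Ncr1, the receptor that defines NK cells, was picked after its values were seen, and the filter on low values kept it out of the limma fit. It had 0.133, 0.153 and 0.228 FPKM in the controls, 0.533 in ultrasound 1, 5.85 in ultrasound 2 and 5.05 in ultrasound 3. The authors' deposited table gives it a log2 fold of 4.34 with q of 6.38e-06, where 12.3% of all genes have a q under 0.05. Gzma had 112 to 165 times the FPKM of Ncr1 in the controls, and 35.4, 30.4 and 16.3 times in ultrasound 1, 2 and 3. Ncr1 rested on 7, 8 and 12 reads in controls 1, 2 and 3 and on 28 in ultrasound 1, so the ratios there carry a large counting error. The part of NK cells in the granzyme values was not tested.

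The myeloid lists, which hold cells rich in serglycin and lysosomal proteases, were higher in ultrasound libraries. Of all genes tested, 6.55% were called higher. The 14 neutrophil markers summed to 204 to 610 FPKM in the controls, 2589 in ultrasound 1, 702 in ultrasound 2 and 746 in ultrasound 3, with 4 of 14 called higher (Csf3r, Mmp9, Cxcr2 and Mmp8, log2 changes of 2.19, 1.88, 1.77 and 1.79). The 14 monocyte and macrophage markers summed to 429 to 922 FPKM in the controls and to 2090, 2155 and 3608 in ultrasound 1, 2 and 3, with 7 of 14 called higher, among them Lyz2, Ace, Treml4 and Fcgr1. Of 8 mast cell and basophil genes, 2 were tested and both rose, Mcpt8 and Hdc, and the list summed to 9.83 FPKM or less in every library. Mcpt8 rested on 2 to 5 reads in the controls and passed the filter on low values through the ultrasound libraries alone. It could therefore enter the test only with a change above 0, and its rise is not counted as a result here. Hdc reached the filter's FPKM of 1 in every library. The 9 B cell markers summed to 243 to 374 FPKM in the controls, 179 in ultrasound 1, 944 in ultrasound 2 and 819 in ultrasound 3, with 0 called by limma and 0 at an unadjusted p under 0.05. Cd79a and Cd79b led that list, and Itgax and Cd209a the dendritic cell list, in which 0 of 3 tested genes passed. Of the list for gamma-delta and NKT cells, 3 of 6 genes are in the table and Blk, also a B cell marker, is the one tested, at 7.99 FPKM in ultrasound 1 and 42.1 in ultrasound 2; Zbtb16 had 0.918 FPKM or less. The part of these cells in the rises of Ctsb, Ctsd, Lamp1, Serpinb1a and Gzmb was not tested.

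**Figure D5:**
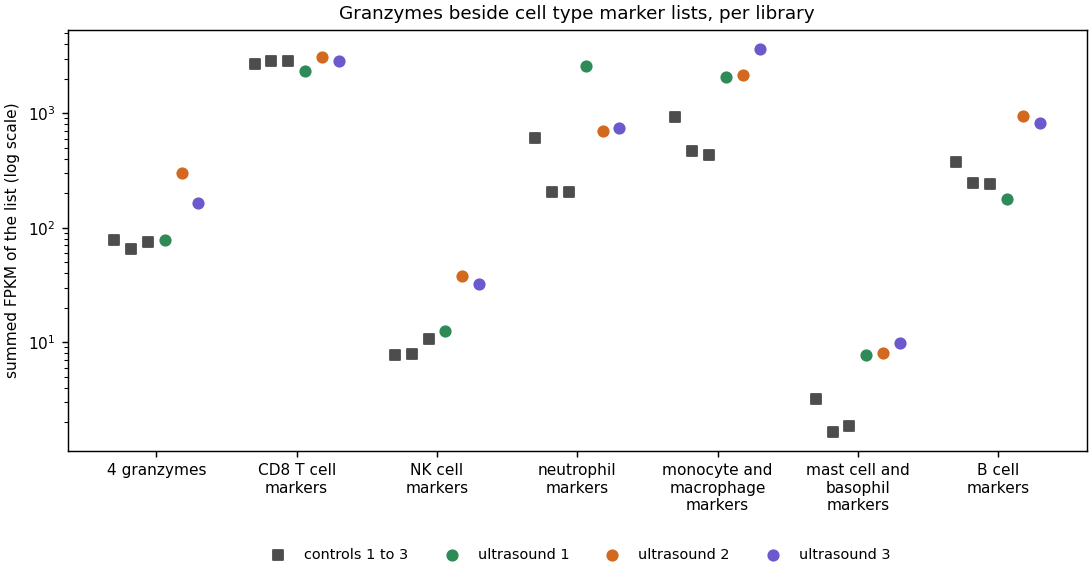
Summed FPKM (vertical axis, log scale) of the 4 granzymes and of cell type marker lists in 3 control libraries (squares) and 3 ultrasound libraries (circles). All sums shown are highest in ultrasound 2 and 3 except the neutrophil sum, which is highest in ultrasound 1 at 2589.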

How the data were processed

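RNA-seq libraries of sorted splenic CD8 T cells, 3 control and 3 ultrasound, were grouped and numbered by their titles. The authors deposited FPKM values per library for 17744 genes. The authors' deposited table also holds mean normalized counts over all samples and per group (unit signal), their ratio as a fold change and its log2, and a p-value and q-value. HISAT2, HTSeq, DESeq2, R 3.2.0 and mm10 are named in the submitters' processing notes, with no role given. Read strand was not given in the sources used here. The deposited filtered table, a subset of the full one, was not used here.

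Genes reaching an FPKM of 1 in 3 or more libraries were tested with limma 3.58.1 (trend, robust; R 4.3.3) on log2(FPKM + 1), two-sided, with Benjamini-Hochberg adjustment over 10655 genes and a threshold of 0.05. This scale understates the change of low genes. Since the FPKM values and the group means obey 1 linear relation, reads were recovered: 100% of 63998 values between 1 and 1000 reads lay within 0.05 of a whole number. Reads carry no molecular identifiers, so depth speaks of counting error only. Recovery and fit were tested on simulated data. Alternatives covered the pseudocount, filters, scaling, the robust option, a replicate block, each library left out, a term for ultrasound 2 and 3, limma voom on recovered reads and the authors' q.

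The members and lists were chosen with earlier results of these data known. Named in the text are all 10 members, from each list the called genes (at most the 4 with the largest log2 change) or else the 2 with the highest mean FPKM, and the 3 genes most like Gzma, Gzmb and Prf1. Genes outside this rule are marked. Positions and sequences are RefSeq's (GRCm38.p6), exons GENCODE M21's. Same-numbered libraries had deviations from their group means that correlated at -0.041, 0.051 and 0.058, and nothing in the labels ties them, so the numbers were not used as pairs. Tables and plots used Python 3.11.15, numpy 2.4.6, pandas 2.3.3 and matplotlib 3.10.9.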

Additional observations from a re-analysis of the deposited data

How the results depend on the processing

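The count over all genes (864 in the main fit) was 0 with no filter and 0 with the replicate block, with 4216 and 3249 genes at an unadjusted p under 0.05 in limma; it was 437 with median-of-ratios size factors, 150 with the term for ultrasound 2 and 3, and 2179 by the authors' deposited q. The number of granule genes called (1) was 0 with no filter and 0 with the replicate block, where 1 had an unadjusted p under 0.05 in each. The authors' q and voom each gave 1. The number of pathway genes called (5) was 0 with no filter and 0 with the replicate block (17 and 14 at an unadjusted p under 0.05), 1 with median-of-ratios size factors, 3 with upper-quartile factors, 1 with the term and 9 by the authors' q. The number of effector genes called (1) was 0 with no filter, either scaling and the replicate block. In those fits 6 or 7 of the 16 had an unadjusted limma p under 0.05. Over all genes, 4216 of 17744 did with no filter and 3136 to 3249 of 10655 in the others. The number of effector genes called was 2 without the robust option, 2 with voom and 6 by the authors' q. Leaving out 1 library gave 0 to 5727 genes, 0 to 5 granule genes, 0 to 20 pathway genes and 0 to 11 effector genes. Each highest value came without ultrasound 1; without control 1 the counts were 567, 1, 7 and 2, and without any other library 0.

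Gzmb kept its direction under all 16 alternatives and its call under 9; its limma adjusted p was 0.0606 with no filter and 0.0897 with the replicate block. Serpinb9 also kept its direction under all 16. Directions reversed only for genes that had not passed. With the term for ultrasound 2 and 3 this held for Gzma (-0.21), Gzmk (-0.56), Prf1 (-0.14), Srgn (0.049) and Unc13d (-0.16). Unc13d also reversed with median-of-ratios (-0.086) and upper-quartile factors (-0.076) and in the authors' table (-0.11). With 1 library left out, values ran from -0.31 to 0.28 for Gzmm (reversed without ultrasound 1 or control 3), from -0.15 to 0.17 for Nkg7 and -0.19 to 0.17 for Serpinb6b (both reversed without ultrasound 1 or control 1), and from -0.058 to 0.11 for Unc13d (reversed without control 1, ultrasound 2 or ultrasound 3). What causes these changes was not tested. With 278 or more reads behind every granule value, the spread between libraries is wider than counting error.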

Other observations

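Of the 16 effector CD8 T cell genes, 8 were higher in ultrasound 2 and 3 than in the other 4 libraries, against 37.3% of all genes tested. The genes named here were picked after their values were seen, 3 with that pattern and 2 without it. Cx3cr1, the fractalkine receptor, had 3.80 to 4.26 FPKM in the controls, 5.18 in ultrasound 1, 30.8 in ultrasound 2 and 40.1 in ultrasound 3 (limma adjusted p 0.102). S1pr5, a receptor for egress from tissue, had 2.17 to 2.64 FPKM in the controls, 2.86 in ultrasound 1, 14.4 in ultrasound 2 and 17.8 in ultrasound 3 (limma adjusted p 0.114). Klrg1, an inhibitory receptor of short-lived effector cells, had 4.19 to 6.96 FPKM in the controls, 4.10 in ultrasound 1, 24.4 in ultrasound 2 and 15.1 in ultrasound 3 (limma adjusted p 0.234). Eomes, a T-box factor of memory CD8 T cells, was lower in each ultrasound library than in every control. The same held for 8.96% of all genes tested. Eomes had 32.0 to 39.9 FPKM in the controls and 19.6, 31.7 and 24.3 in the ultrasound libraries (limma adjusted p 0.110). Itga4, an integrin chain, had 48.2 to 57.6 FPKM in the controls, 53.8 in ultrasound 1, 34.1 in ultrasound 2 and 36.7 in ultrasound 3 (limma adjusted p 0.191). None of these 5 passed limma over all libraries. The authors' deposited table gives a q of 0.0127 for Cx3cr1, 0.00218 for S1pr5 and 0.0148 for Eomes. Klrg1 has a q of 0.0928 there and Itga4 a q of 0.117. Over all genes, 12.3% have a q under 0.05.

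Of the neutrophil list, 2 granule proteases of neutrophil precursors, also picked after their values were seen, were highest in ultrasound 1. Elane, neutrophil elastase, had 1.57 to 2.37 FPKM in the controls, 41.5 in ultrasound 1, 1.68 in ultrasound 2 and 5.05 in ultrasound 3 (limma adjusted p 0.255). Prtn3, proteinase 3, a serine protease of the same granules, had 1.26 to 3.12 FPKM in the controls, 29.7 in ultrasound 1, 1.51 in ultrasound 2 and 4.32 in ultrasound 3 (limma adjusted p 0.296). The neutrophil list did not share 1 pattern: Csf3r, Mmp9 and Cxcr2 were highest in ultrasound 3, and the other listed markers in ultrasound 1. Gzmb had its highest value in ultrasound 2, and the part of neutrophils in its values was not tested.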
